A study of Mus musculus with 22 samples.

Results

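The genes described are 6: the adult alpha globins Hba-a1 and Hba-a2, the adult beta globins Hbb-bs and Hbb-bt, Alas2 and Hmox1. They were taken by name from the 54532 genes of each deposited count table, and all 6 passed the filter on low counts in both tables. RNA was sequenced in bulk from mouse retina and choroid, which were collected as 1 tissue. The wild-type C57BL/6J groups were a control without choroidal neovascularisation (CNV) and eyes at 3, 7 and 14 days after CNV was induced by laser burns, with 4 libraries each. The other groups were Rag2-/- mice, which form neither T nor B lymphocytes, and Rag2-/-γc-/- mice, in which the common gamma chain of the cytokine receptors that natural killer cells need is missing too. These had 3 libraries each, all at day 3 after the laser, so no unlasered library of either knockout was analysed here. Both knockout groups share the Rag2 deletion and the laser. The protocol text names adult C57BL/6J mice for every sample. Nothing in it ties a library to an animal, so the p-values measure the spread between these libraries, which may be partly technical, and whether blood was flushed from the vessels before dissection is not stated there. Control replicate 4 is titled as without CNV but carries a laser treatment tag, and it was kept as a control.

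Hemoglobin is built of alpha and beta globin chains, each holding a heme group with an iron atom. Red cells make it in the bone marrow and lose their nucleus, and young red cells in the blood still carry globin mRNA, so globin transcripts in a solid tissue are commonly read as a measure of blood left in it. Alas2 encodes the erythroid form of delta-aminolevulinate synthase, the rate-limiting first enzyme of heme synthesis. Hmox1 encodes heme oxygenase 1, the inducible enzyme that opens the heme ring and releases iron, carbon monoxide and biliverdin. It is known to be held down by the repressor Bach1, which heme displaces, to be driven by the oxidative stress factor Nrf2, and to be high in macrophages that clear red cells.

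In the deposited mm10 annotation, Hba-a1 (ENSMUSG00000069919) lies at chr11:32283511-32284465 and Hba-a2 (ENSMUSG00000069917) at chr11:32296489-32297298, both on the plus strand. Hbb-bs (ENSMUSG00000052305) lies at chr7:103826534-103828096 and Hbb-bt (ENSMUSG00000073940) at chr7:103812524-103813996, both on the minus strand. Alas2 (ENSMUSG00000025270) lies at chrX:150547375-150570638 and Hmox1 (ENSMUSG00000005413) at chr8:75093621-75100589, both on the plus strand. All 6 are protein-coding genes. The 250 bases before the RefSeq gene start (GRCm38.p6) are printed for the members with an entry, because the globin copies share much of their sequence and, as shown further on, moved together across libraries. Each printed window reaches into the deposited gene model, which begins before the RefSeq gene start. Capitals mark matches to the motif CACCC, the core of the Klf1 site, to the CCAAT box, to the GATA factor site GATAAG, and to the TATA box written as TATAAA or, one base earlier, as the motif ATATAA. Matches on the opposite strand appear as the reverse complement. Hmox1 had no entry.
Hba-a1, plus strand, chr11:32283422-32283671: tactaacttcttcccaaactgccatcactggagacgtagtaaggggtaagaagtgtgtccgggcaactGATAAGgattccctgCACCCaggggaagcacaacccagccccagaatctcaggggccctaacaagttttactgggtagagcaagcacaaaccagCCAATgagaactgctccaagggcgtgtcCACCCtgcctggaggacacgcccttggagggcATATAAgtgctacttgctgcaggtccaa
Hba-a2, plus strand, chr11:32296242-32296491: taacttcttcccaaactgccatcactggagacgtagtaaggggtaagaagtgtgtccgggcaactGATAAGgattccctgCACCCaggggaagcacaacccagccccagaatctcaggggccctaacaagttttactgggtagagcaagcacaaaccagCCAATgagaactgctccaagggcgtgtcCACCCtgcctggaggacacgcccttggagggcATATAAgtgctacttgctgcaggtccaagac
Hbb-bs, minus strand, chr7:103827929-103828178: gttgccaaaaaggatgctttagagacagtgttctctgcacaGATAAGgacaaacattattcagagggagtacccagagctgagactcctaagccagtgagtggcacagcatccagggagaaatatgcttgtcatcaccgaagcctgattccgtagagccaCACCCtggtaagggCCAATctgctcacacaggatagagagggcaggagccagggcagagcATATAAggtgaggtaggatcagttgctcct
Hbb-bt, minus strand, chr7:103813924-103814173: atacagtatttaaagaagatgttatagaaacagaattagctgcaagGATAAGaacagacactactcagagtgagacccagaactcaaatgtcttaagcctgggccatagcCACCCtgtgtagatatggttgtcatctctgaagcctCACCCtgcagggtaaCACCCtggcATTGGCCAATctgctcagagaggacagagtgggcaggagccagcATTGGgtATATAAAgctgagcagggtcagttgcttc
Alas2, plus strand, chrX:150547167-150547416: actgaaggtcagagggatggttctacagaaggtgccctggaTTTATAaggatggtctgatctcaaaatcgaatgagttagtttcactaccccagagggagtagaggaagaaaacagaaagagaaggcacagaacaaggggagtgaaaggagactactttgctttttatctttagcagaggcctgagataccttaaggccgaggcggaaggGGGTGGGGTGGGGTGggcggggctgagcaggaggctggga

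The 4 globin windows held the same motifs in the same order on their own strand: the GATA site lay farthest out, then the CACCC motif, then the CCAAT box, then ATATAA. The alpha globins held the CACCC motif once more between the CCAAT box and ATATAA, and Hbb-bt held further matches, 2 of them to the CCAAT box on the opposite strand. Alas2 held the CACCC motif 3 times and TATAAA once, all on the opposite strand, and neither the CCAAT box nor the GATA site was in this window. Among 32817 RefSeq windows of the same length, the CACCC motif was found on either strand in 52.0%, the CCAAT box in 33.8%, TATAAA in 12.4%, the motif ATATAA in 9.10% and the GATA site in 6.55%. The motif ATATAA was added to the search after the sequences were seen, and it overlaps TATAAA by 5 bases in Hbb-bt. The core TGANTCA, which Nrf2 and AP-1 factors share, was found in 6.75% of all windows and the Maf recognition element in 0.134%, and neither was in the 5 windows printed here.

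The copies were compared over the full RefSeq windows of 300 bases, which also hold the 50 bases after each gene start. The alpha copies shared an unbroken run of 297 bases there, offset by 3, and the beta copies at most 14 bases in a row. Within the transcripts of GENCODE M21, however, 56.5% of the 100-base stretches of Hba-a1 were also found in Hba-a2, and 62.6% of those of Hbb-bs were also in Hbb-bt. The way reads that match both copies were counted is not given in the sources used here, so the split between copies is uncertain and sums of the copies are given beside them.

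Depth was 15033983 to 16848254 counts per library in the wild type and 27227847 to 30315086 in the knockouts. Rag2, which is low in this tissue, had 0 to 4 counts in the wild-type libraries and 0 or 1 in the knockouts, too few to check the deletion. Il2rg, the common gamma chain, had 28 to 62 counts in Rag2-/- and 0 in each Rag2-/-γc-/- library, which matches their labels. Rpe65 and Pecam1, defining genes of pigment epithelium and endothelium, were present in every library. Tissue content varied: the summed level of 20 lens genes was 201 to 14241 CPM (counts scaled to a common library total) in control, 30305 to 57419 CPM at day 3 and up to 155922 CPM in day 14 replicate 1. The sum of 14 cornea and conjunctiva genes was 2559 to 34758 CPM in the wild type but 1.35 to 9.64 CPM in the knockouts. Tests were edgeR quasi-likelihood tests over all genes with Benjamini-Hochberg adjustment, and a gene was called at an adjusted p under 0.05. The 2 tables were scaled and tested separately.

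Globin transcripts were scarce in control eyes and spread widely after the laser: the summed level of the 4 globins spanned a 2.39-fold range among controls and a 10.4-fold, 25.9-fold and 10.999-fold range among the libraries of days 3, 7 and 14. The alpha globins rose at day 7, the beta globins and Alas2 were called by edgeR on no day, and Hmox1 rose at day 3. Hba-a1, the more abundant alpha globin, was at 10.1, 7.67, 13.6 and 15.6 CPM in the 4 controls. At day 3 it was at 12.9, 57.7, 139 and 27.1 CPM, and at day 7 at 437, 28.9, 16.6 and 43.8 CPM. At day 14 it was at 189, 71.9, 49.6 and 16.1 CPM. Every library of day 7 and day 14 lay above every control, as did 3 of 4 at day 3, but the lowest of each day was close to the highest control of 15.6 CPM. Controls spanned a 2.03-fold range and the 12 laser libraries a 34.0-fold range.

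**Figure D1:**
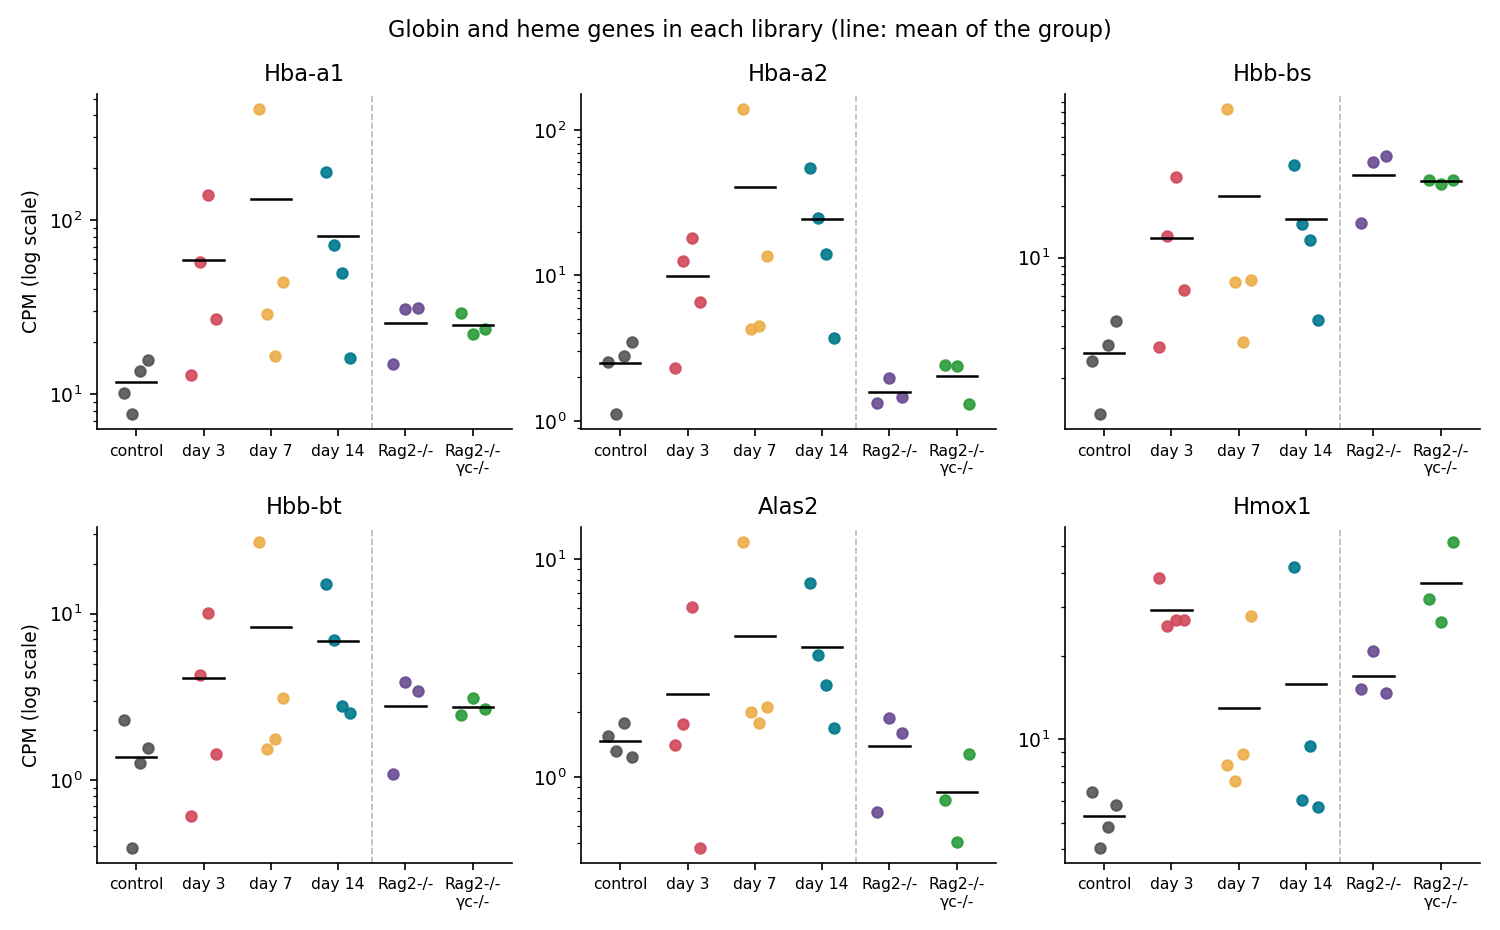
Level of each gene in every library, in CPM on a log axis (each point a library, in replicate order; line, group mean; dashed line between the tables, which were scaled separately). The 4 globins and Alas2 share the same high libraries, such as day 7 replicate 1 (Hba-a1 437 CPM), whereas Hmox1 is high in all 4 libraries of day 3.

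Hba-a1 was 5.04-fold, 11.2-fold and 6.94-fold its control mean at days 3, 7 and 14. Its log2 fold change was 2.33 ± 1.01 (SE) at day 3 (edgeR adjusted p = 0.111, n = 4 per group), 3.48 ± 1.06 at day 7 (adjusted p = 0.0484) and 2.79 ± 1.03 at day 14 (adjusted p = 0.131). Hba-a1 was therefore called higher at day 7 only, where it rested on replicate 1. Without that library the log2 fold change was 1.34 ± 0.77 (adjusted p = 0.308), and without control replicate 1, 2, 3 or 4 or day 7 replicate 2 the adjusted p was 0.0787 to 0.121. Over all genes, the day 7 calls fell from 1962 to between 128 and 620 in those runs.

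Hba-a2, the neighbouring alpha copy, followed the same libraries at a lower level. Controls were at 2.54, 1.12, 2.80 and 3.51 CPM and the day 3 libraries at 2.33, 12.6, 18.1 and 6.60 CPM. The day 7 libraries were at 140.0, 4.32, 4.50 and 13.6 CPM, and those of day 14 at 55.1, 24.9, 14.1 and 3.699 CPM. Day 7 and day 14 lay wholly above control and day 3 overlapped with it through replicate 1, as for Hba-a1. The log2 fold change was 1.99 ± 1.09 (SE) at day 3 (edgeR adjusted p = 0.190), 4.02 ± 1.15 at day 7 (adjusted p = 0.0409, called) and 3.29 ± 1.12 at day 14 (adjusted p = 0.112). The day 7 call was lost without replicate 1 of day 7 (1.58 ± 0.80, adjusted p = 0.253), and without replicate 2 of day 7 or any 1 control (adjusted p 0.0640 to 0.108).

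Hbb-bs, the major adult beta globin counted here, was at 2.54, 1.25, 3.11 and 4.29 CPM in control and at 3.06, 13.3, 29.3 and 6.48 CPM at day 3. It was at 72.7, 7.22, 3.26 and 7.43 CPM at day 7 and at 34.5, 15.7, 12.7 and 4.35 CPM at day 14. The high libraries were those of the alpha globins, day 7 replicate 1, day 14 replicate 1 and day 3 replicate 3. Only day 14 lay wholly above control, by a narrow margin. The log2 fold changes were 2.22 ± 0.96, 3.01 ± 0.98 and 2.58 ± 0.96 (SE) at days 3, 7 and 14, with edgeR adjusted p of 0.109, 0.0588 and 0.134, so Hbb-bs was not called on any day. Without day 7 replicate 3 or 4 its day 7 value was 3.38 or 3.30 and was called (edgeR adjusted p = 0.0437 and 0.0423).

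Hbb-bt, the minor beta copy, was the lowest globin. It was at 2.29, 0.394, 1.27 and 1.56 CPM in control and at 0.612, 4.29, 10.1 and 1.43 CPM at day 3. It was at 26.9, 1.55, 1.78 and 3.13 CPM at day 7 and at 15.1, 6.92, 2.78 and 2.53 CPM at day 14. Its lowest values rest on 6 and 10 reads, and day 3 and day 7 overlapped with control. Log2 fold changes were 1.56 ± 1.03, 2.58 ± 1.04 and 2.29 ± 1.04 (SE), with edgeR adjusted p of 0.272, 0.108 and 0.189 at days 3, 7 and 14.

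**Figure D2:**
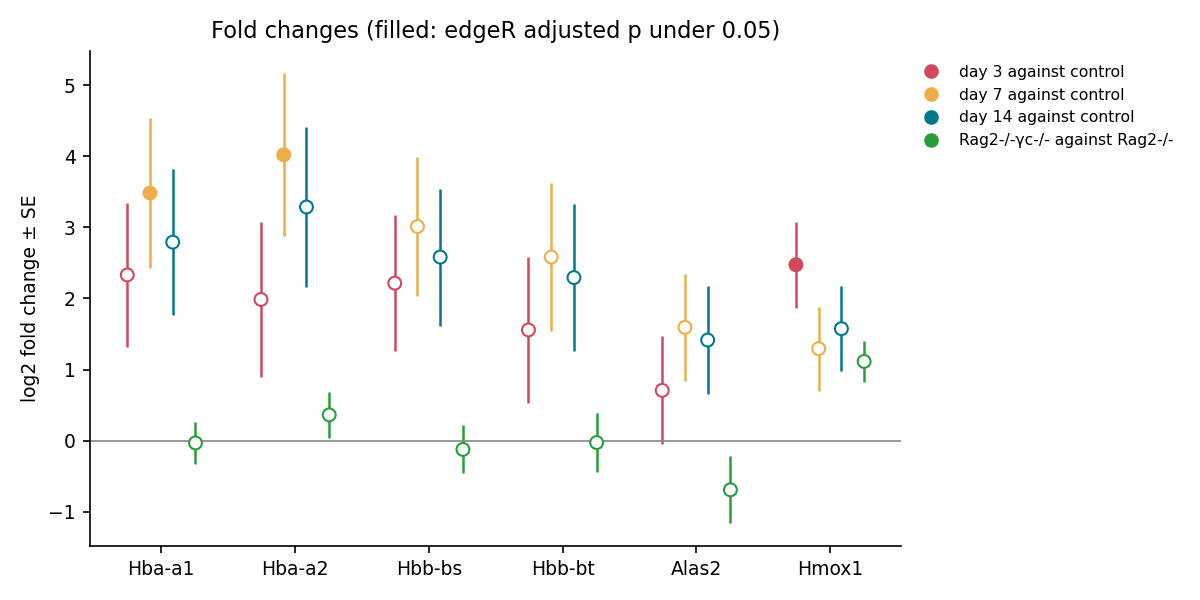
Log2 fold change of each gene with its model SE, for the 3 days against control (4 libraries a group) and for Rag2-/-γc-/- against Rag2-/- (3 a group), with filled points at an edgeR adjusted p under 0.05. Only Hba-a1 and Hba-a2 at day 7 and Hmox1 at day 3 are filled, and the globins of the knockout pair sit between -0.13 and 0.36.

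Per length of the gene model, Hba-a1 stood above the other 3 globins. In control the mean level was 14.5 ± 4.35 CPM per kb for Hba-a1, 3.73 ± 1.51 for Hba-a2, 3.64 ± 1.65 for Hbb-bs and 1.96 ± 1.11 for Hbb-bt (SD, n = 4). Hba-a2, Hbb-bs and Hbb-bt overlapped within that spread, and Hba-a1 did not overlap with them. Together the 4 globins took 0.00105% to 0.00255% of all counts in control and at most 0.0689% (10703 counts, 95% Wilson interval 0.0676% to 0.0702%) in day 7 replicate 1. The interval covers counting error only. The summed globin level was above the highest control, 25.0 CPM, in 11 of 12 laser libraries, the exception being day 3 replicate 1 at 18.9 CPM.

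Of the 6 genes, 1 was called higher at day 3, where 14.7% of all genes tested were called (6.97% higher and 7.77% lower), and 2 were called higher at day 7, where 10.5% were (3.62% higher and 6.9% lower). At day 14 edgeR called 0 of the 6, against 0.273% of all genes called. At that day 5 of the 6 had an unadjusted edgeR p under 0.05, but the share of all genes at that level was not counted. DESeq2 called 3 there (Hba-a1, Hba-a2 and Hbb-bs) and limma voom 0. Of all 18657 genes tested, DESeq2 called 1778 at day 14 and limma voom 101. Every library lay above every control for 1 of the 6 genes at day 3 (17.4% of all genes), for 3 at day 7 (11.3%) and for 4 at day 14 (6.76%). Against day 3, edgeR called 0 of the 6 at day 7 and at day 14, with 0 at an unadjusted p under 0.05 and 0 called by limma voom or, among the 5 with an adjusted p, by DESeq2. In those 2 comparisons 0% and 0.00536% of all genes were called. The day comparisons with control share the same 4 controls.

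The authors' deposited table gives log2 fold changes close to these, 3.51 for Hba-a1 and 4.05 for Hba-a2 at day 7, but for the 4 globins and Alas2 at day 7 it lists no p-value and an adjusted p of 1. At day 14 the authors' deposited table lists adjusted p of 9.4e-04 for Hba-a1, 3.41e-04 for Hba-a2, 0.00157 for Hbb-bs, 0.0191 for Hbb-bt and 0.0490 for Alas2. At day 3 the authors' deposited table has Hba-a1 at 0.00518, Hba-a2 at 9.74e-04 and Hbb-bs at 0.00913, and leaves Hbb-bt (0.0764) and Alas2 (0.381) above 0.05.

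Markers of other tissues moved with the globins in part. The 3 libraries with the highest globin sums were day 7 replicate 1 (677 CPM), day 14 replicate 1 (293 CPM) and day 3 replicate 3 (197 CPM), and their cornea and conjunctiva sums were 26863, 20170 and 34758 CPM, against 2559 to 8154 CPM in control. Day 7 replicate 2 had a cornea sum of 24550 CPM with a globin sum of 42.0 CPM, and day 14 replicate 2 a cornea sum of 5849 CPM with a globin sum of 119 CPM. When scores of lens and cornea content entered the fit as covariates, the log2 fold change of Hba-a1 was -0.29 ± 1.17 at day 3 (edgeR adjusted p = 0.917) and 0.94 ± 1.14 at day 7 (adjusted p = 0.657). The lens score was 1.74 to 6.04 in control and 8.40 to 9.41 at day 3, without overlap. Lens content and day 3 therefore cannot be told apart in that fit, which holds for each day 3 value given from it. Over all genes, its calls were 438 at day 3, against 2749, and 1333 at day 7, against 1962. The part of this tissue content in the globin values was otherwise not tested. In bulk tissue, fewer cells of a type and less RNA per cell cannot be told apart.

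Alas2 was near 1.5 CPM in control and high in the globin-rich libraries. It was at 1.55, 1.31, 1.78 and 1.23 CPM in control and at 1.41, 1.75, 6.03 and 0.476 CPM at day 3. It was at 11.95, 1.997, 1.78 and 2.09 CPM at day 7 and at 7.80, 3.63, 2.66 and 1.69 CPM at day 14. Its 3 highest values fell in the 3 libraries with the highest globin sums, and each day overlapped with control. The log2 fold change was 0.71 ± 0.76 at day 3, 1.59 ± 0.75 at day 7 and 1.41 ± 0.75 at day 14 (SE), with edgeR adjusted p of 0.507, 0.159 and 0.254. The day 3 value was -0.28 without day 3 replicate 3.

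The proportion of Alas2 to globin counts varied. There were 49.5 to 126 Alas2 counts per 1000 globin counts in control, 11.4 to 74.7 at day 3, 17.7 to 67.9 at day 7 and 26.6 to 63.3 at day 14. The highest ratio belonged to the library with the fewest globin counts, control replicate 2 (20 Alas2 against 159 globin counts). In the library with the most globin, day 7 replicate 1, the ratio was 17.7.

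**Figure D3:**
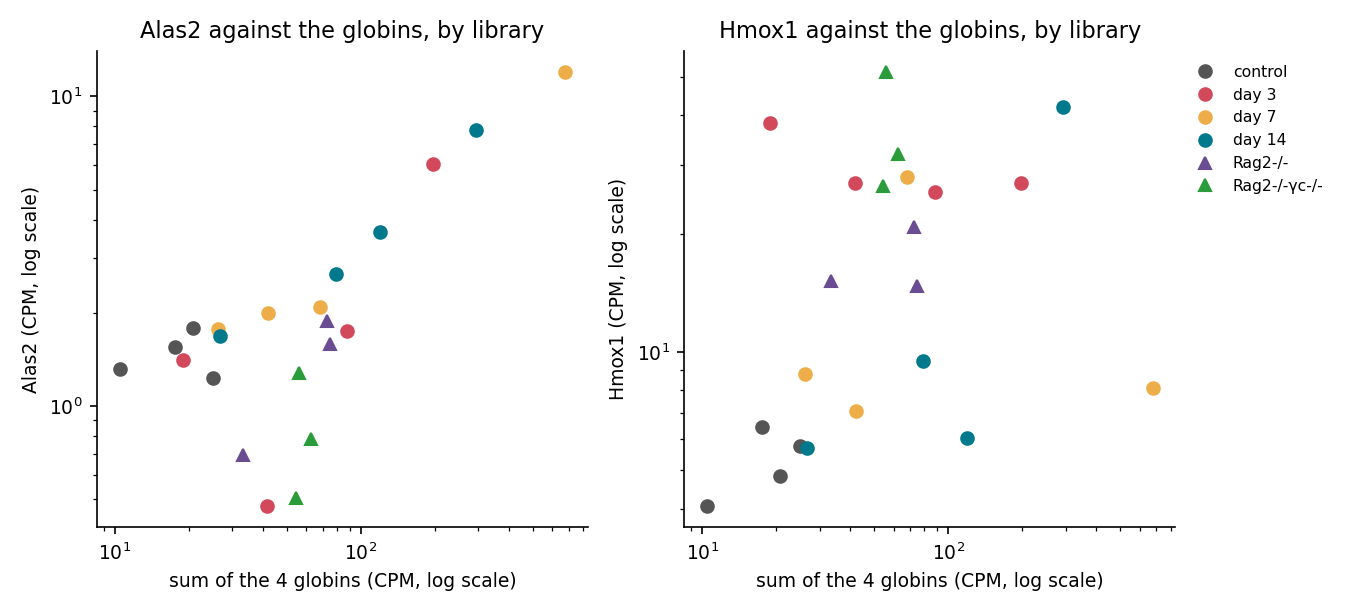
Alas2 (left) and Hmox1 (right) against the summed globins, in CPM on log axes, with 1 point per library (circles, wild type; triangles, the knockouts, scaled separately). The 3 highest Alas2 levels, up to 11.95 CPM, are in the 3 wild-type libraries with the most globin, whereas Hmox1 is 8.09 CPM in the library with the most globin and 38.1 CPM in a day 3 library with a globin sum of 18.9 CPM.

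Hmox1 was high in every library of day 3, whatever its globin level. It was at 6.43, 4.07, 4.83 and 5.78 CPM in control and at 38.1, 25.6, 26.95 and 26.9 CPM at day 3, with no overlap. At day 7 it was at 8.09, 7.09, 8.82 and 27.8 CPM, and at day 14 at 41.9, 6.04, 9.48 and 5.71 CPM. Day 7 lay wholly above control with 1 high library, replicate 4, and day 14 had 1 high library, replicate 1, and 2 libraries within the range of the controls. The means ran from 29.4 ± 5.87 CPM at day 3 (SD, n = 4) through 15.8 ± 17.5 at day 14 and 13.0 ± 9.93 at day 7 to 5.28 ± 1.04 in control. Day 3 overlapped with day 14 and day 14 with day 7, whereas day 7 did not overlap with control.

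Hmox1 rose 5.57-fold at day 3, with a log2 fold change of 2.47 ± 0.61 (SE, n = 4 per group, edgeR adjusted p = 0.0238). The day 7 value was 1.29 ± 0.59 (adjusted p = 0.147) and the day 14 value 1.57 ± 0.60 (adjusted p = 0.137), and neither was called. Without day 7 replicate 4 the day 7 value was 0.60 ± 0.55 (adjusted p = 0.458), and without day 14 replicate 1 the day 14 value was 0.44 ± 0.42 (adjusted p = 0.581). The day 3 fold changed little when 1 library was left out (2.33 to 2.58), but the adjusted p passed 0.05 without control replicate 1, 2, 3 or 4 or day 3 replicate 3 (0.0509, 0.0679, 0.0693, 0.0582 and 0.0547). Over all genes, the day 3 calls fell from 2749 to between 292 and 861 in those runs. Without day 14 replicate 1, Hmox1 at day 14 was lower than at day 3 by edgeR (log2 fold change -2.05 ± 0.43, adjusted p = 0.0178), whereas with it the difference was -0.90 ± 0.57 (adjusted p = 0.823). The authors' deposited table lists Hmox1 at day 3 with a log2 fold change of 2.50 and an adjusted p of 9.01e-33, and the authors' deposited table gives it an adjusted p of 0.00956 at day 7 and 0.0916 at day 14.

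In the wild type, every library with Hmox1 at 25.6 CPM or more had macrophage and lens sums above those of all controls. The knockouts differed in the lens sum. Of 14 monocyte and macrophage genes, 10 were called higher at day 3, and their sum was 375 to 911 CPM against 215 to 299 CPM in control. The highest sum at day 14, 1051 CPM, was in replicate 1, and the other 3 had 264 to 373 CPM. At day 7, however, the library with the highest Hmox1, replicate 4, had a macrophage sum of 409 CPM, between 279 and 689 CPM in the other 3, and the highest lens sum of that day, 39408 CPM. In the fit with those scores as covariates the day 3 value of Hmox1 was 1.28 ± 0.68 (edgeR adjusted p = 0.311). Day 14 replicate 2 had a lens sum of 22189 CPM with Hmox1 at 6.04 CPM. In the knockouts Hmox1 was at 14.7 to 51.4 CPM with lens sums of 122 to 9284 CPM. Its highest value, in Rag2-/-γc-/- replicate 3, came with the lowest lens sum of the knockouts, 122 CPM. The part of macrophages in the Hmox1 values was not tested.

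In the knockout pair the globin levels of the genotypes overlapped, and Hmox1 was higher in each Rag2-/-γc-/- library without passing the test. Hba-a1 was at 14.95, 30.7 and 31.3 CPM in Rag2-/- and at 29.4, 22.1 and 23.8 CPM in Rag2-/-γc-/-. Hbb-bs was at 15.9, 35.9 and 38.6 CPM in Rag2-/- and at 28.1, 26.6 and 28.1 CPM in Rag2-/-γc-/-. The Rag2-/-γc-/- libraries lay inside the range of Rag2-/- for both genes, with Rag2-/- replicate 1 the lowest. Log2 fold changes were -0.03 ± 0.30 for Hba-a1 (edgeR adjusted p = 0.972) and -0.13 ± 0.34 for Hbb-bs (adjusted p = 0.898). The minor copies were low: Hba-a2 at 1.32 to 1.98 CPM in Rag2-/- and 1.31 to 2.42 CPM in Rag2-/-γc-/-, and Hbb-bt at 1.09 to 3.88 CPM and 2.46 to 3.10 CPM.

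Alas2 was at 0.693, 1.87 and 1.59 CPM in Rag2-/- and at 0.783, 0.504 and 1.27 CPM in Rag2-/-γc-/-, which overlapped (log2 fold change -0.69 ± 0.47, edgeR adjusted p = 0.531). Hmox1 was at 15.2, 20.9 and 14.7 CPM in Rag2-/- and at 32.0, 26.4 and 51.4 CPM in Rag2-/-γc-/-, so that the groups did not overlap. Its mean was 2.16-fold higher, a log2 fold change of 1.11 ± 0.28 (SE, n = 3 per group), which edgeR did not call (adjusted p = 0.189) and DESeq2 did (adjusted p = 2.38e-04). Without 1 library the log2 fold change was 0.79 to 1.30 (edgeR adjusted p 0.118 to 0.417), lowest without Rag2-/-γc-/- replicate 3. edgeR called 0 of the 6 genes here, beside 0.465% of all genes, and limma voom called 0. An unadjusted edgeR p under 0.05 was found for 1 of the 6. The share of all genes at that unadjusted level was not counted, which also holds for the macrophage genes below. Of all 18923 genes tested, DESeq2 called 695 and limma voom 43. Every library was higher for 1 of the 6 genes and for 11.5% of all genes. The macrophage sum was 261 to 367 CPM in Rag2-/- and 358 to 777 CPM in Rag2-/-γc-/-, with 0 of its 14 genes called by edgeR, 8 at an unadjusted p under 0.05, 5 called by DESeq2 and 0 by limma voom.

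The balance of the chains set the tables apart. The ratio of alpha to beta globin per length of gene model was 2.48 to 5.63 (median 3.996) over the 16 wild-type libraries and 0.739 to 0.993 over the 6 knockout libraries, with no overlap. As a ratio of counts it was 2.63 to 5.80 against 0.780 to 1.04. At day 3, the only day both tables hold, the wild type had 3.78 to 4.13. The wild-type groups overlapped: controls had 2.48 to 5.10, day 7 libraries 3.63 to 5.63 and day 14 libraries 2.74 to 4.74. Each table has its own scale, and the levels are set side by side only. Hbb-bs was 3.06 to 29.3 CPM in the wild type at day 3 and 15.9 to 38.6 CPM in the knockouts, whereas Hba-a2 was 2.33 to 18.1 CPM and 1.31 to 2.42 CPM.

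**Figure D4:**
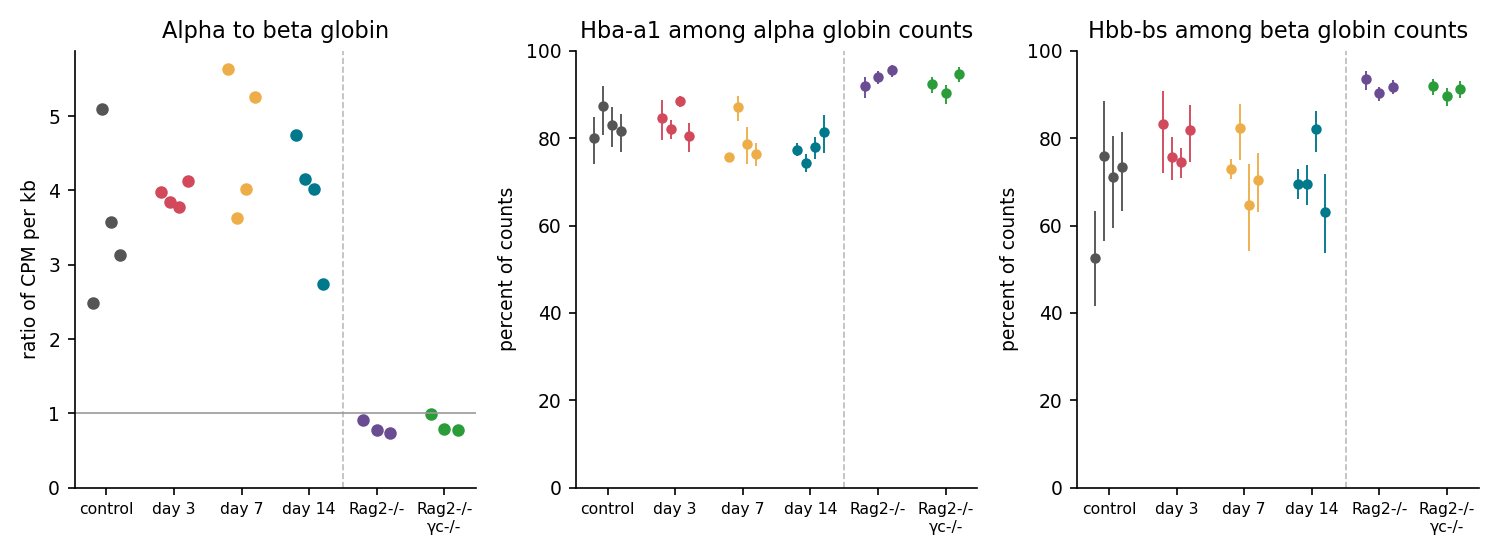
Ratio of alpha to beta globin in CPM per kb, and the percent of alpha counts on Hba-a1 and of beta counts on Hbb-bs, with 1 point per library and 95% Wilson intervals on the percents (counting error only). The knockout libraries lie under a ratio of 1 and above 89% for both copies, apart from the wild-type libraries in each panel.

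The copies split their counts differently as well. Hba-a1 held 74.3% to 88.5% of the alpha counts in the wild type and 90.3% to 95.6% in the knockouts, and Hbb-bs held 52.6% to 83.3% of the beta counts and 89.6% to 93.6%. No library of 1 table fell in the range of the other. At day 3 the lens sum differed too, at 30305 to 57419 CPM in the wild type and 122 to 9284 CPM in the knockouts. Genotype, sequencing depth, the cornea and conjunctiva sum, the lens sum at day 3 and whatever else was done differently for the 2 tables cannot be told apart here. No test was therefore made of these differences.

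Other blood genes gave a mixed picture. Of the embryonic and minor globins, 6 are in the tables, none passed the filter, and Hbb-bh1 and Hbb-bh2 had 0 counts in all 22 libraries. Of 22 erythroid genes in the tables, 8 were tested, and the defining ones of the red cell membrane were near 0 in the wild type, with 0 to 5 counts of Slc4a1 (the anion exchanger band 3) and 0 of Icam4. At day 3, 1 of the 8 was called, Ermap, an erythroblast membrane protein, which fell from 7.27 ± 1.94 to 3.73 ± 0.71 CPM (SD, n = 4, edgeR adjusted p = 0.0337). It kept that call in 1 of 8 runs that each left out 1 library, and the covariates took its edgeR adjusted p to 0.0511. Over all genes, the 2749 day 3 calls became 292 to 2409 in the runs without 1 library. The list median was 0.11 on the log2 scale, beside 0.0088 over all genes tested.

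Platelet genes summed together were highest in the libraries with the most globin, a pattern picked out after the values were seen. The sum of 12 platelet genes was 6.67 to 8.04 CPM in control, and its 4 highest values, 49.9, 27.9, 25.9 and 25.8 CPM, were in day 14 replicate 2, day 7 replicate 1, day 14 replicate 1 and day 3 replicate 3. Those were the 4 libraries with the highest globin sums, and the other 8 laser libraries had 9.34 to 14.8 CPM. Single genes of the list did not all follow the sum. Itga2b took a large part of it, at 14.1 CPM in day 7 replicate 1 and 16.1 CPM in day 14 replicate 1, against 2.54 to 4.35 CPM in control. Gp9 and Clec1b were at 3.11 and 2.87 CPM in day 14 replicate 2 and at most 0.722 CPM in any other wild-type library. Ppbp, which encodes a chemokine stored in platelets, was at 9.27 CPM in day 3 replicate 3, 9.26 CPM in day 14 replicate 2 and 3.67 CPM in day 7 replicate 1, with 0 to 0.254 CPM in control. In day 3 replicate 1, the laser library with the lowest globin sum, Ppbp was at 3.00 CPM, above 2.45 CPM in day 14 replicate 1. Of the 5 platelet genes tested, 1 was called at day 3, Pf4 (platelet factor 4), which rose from 0.588 ± 0.235 to 3.96 ± 2.18 CPM (log2 fold change 2.73 ± 0.72, edgeR adjusted p = 0.0293). Pf4 was highest outside those 4 libraries, at 6.18 CPM in day 3 replicate 4, which had a globin sum of 41.6 CPM. Pf4 kept its call in 1 of 8 runs without 1 library and lost it with the lens and cornea covariates (1.90, edgeR adjusted p = 0.285). The sum of 12 neutrophil genes was 127 CPM in day 3 replicate 3, 1 of those 4 libraries, and 9.31 to 25.3 CPM in the other 11 laser libraries, and the part of blood in these sums was not tested.

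The other genes of heme and iron handling were taken from 5 lists. At day 3, 11 of 68 tested were called higher and 2 lower, where 6.97% of all genes were called higher and 7.77% lower, with a median log2 fold change of 0.27 beside 0.0088 over all genes. In heme synthesis, 2 of 12 rose and 1 fell. Slc25a37 (mitoferrin 1), which brings iron into mitochondria, rose from 59.4 ± 3.46 to 117 ± 34.7 CPM (log2 fold change 0.98 ± 0.20, edgeR adjusted p = 0.0142), and it kept its call in 8 of 8 runs without 1 library. Cpox, the coproporphyrinogen oxidase, fell by 0.50 ± 0.15 on the log2 scale (edgeR adjusted p = 0.0392), and that call held in 1 of the 8 runs. With the lens and cornea scores as covariates, edgeR kept 3 of the 13 day 3 calls of the 5 lists, those of Slc25a37 (1.10, adjusted p = 0.0133), Lcn2 (2.93, adjusted p = 0.0418) and Srxn1 (0.90, adjusted p = 0.0143). Over all genes, the 2749 day 3 calls became 438 with these covariates and 292 to 2409 in the runs without 1 library. The lens score did not overlap between control and day 3.

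**Figure D5:**
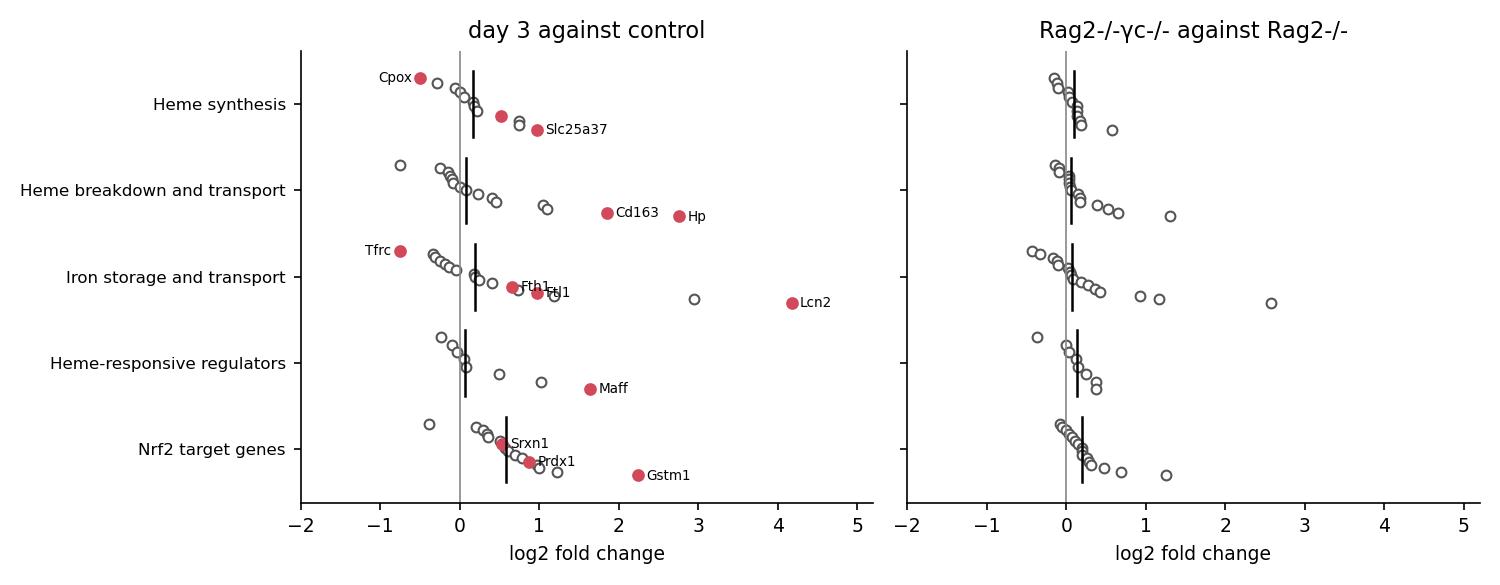
Log2 fold changes of the tested genes of 5 heme, iron and stress response lists at day 3 against control (left) and in Rag2-/-γc-/- against Rag2-/- (right), with red points called by edgeR, open points not called and a line at each list's median. At day 3, 13 of 68 genes are red, with Lcn2 farthest to the right at 4.18, and in the knockout pair 0 of 67 are.

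In heme breakdown and transport, 2 of 15 rose at day 3, and both act in the capture of hemoglobin outside cells. Hp (haptoglobin), the plasma protein that binds free hemoglobin, had a log2 fold change of 2.76 ± 0.79 (edgeR adjusted p = 0.0355), from 0.382 ± 0.229 to 2.65 ± 3.08 CPM. Cd163, the macrophage receptor for that complex, went from 0.8289 ± 0.470 to 3.03 ± 1.22 CPM (1.86 ± 0.53, adjusted p = 0.0354). Both were low in level, and kept their calls in 3 and 2 of 8 runs without 1 library. With the lens and cornea covariates both calls were lost, with Hp at 2.07 (edgeR adjusted p = 0.313) and Cd163 at 0.32 (adjusted p = 0.763). Hpx (hemopexin), which binds free heme, was next with 1.05 ± 0.35 and was not called (adjusted p = 0.0535).

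In iron storage and transport, 3 of 17 rose and 1 fell at day 3. The ferritin subunits Ftl1 and Fth1, which store iron, rose by 0.98 ± 0.25 and 0.66 ± 0.21 on the log2 scale (edgeR adjusted p = 0.0262 and 0.0471). Ftl1 was at 129 to 159 CPM in control and 246 to 321 CPM at day 3, and Fth1 at 561 to 611 CPM and 769 to 1166 CPM. Tfrc, the transferrin receptor that takes iron up, fell from 169 ± 6.03 to 100.2 ± 4.95 CPM (adjusted p = 0.0385), with no overlap. Lcn2, a siderophore-binding protein of neutrophils and stressed glia, rose from 5.08 ± 1.07 to 92.1 ± 67.8 CPM (4.18 ± 0.64, adjusted p = 0.00527) and kept its call in 8 of 8 runs. The calls of Ftl1, Fth1 and Tfrc held in 2, 1 and 0 of the 8 and were lost with the covariates, at 0.68, 0.36 and -0.52 (edgeR adjusted p = 0.265, 0.364 and 0.345).

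Among the 8 tested regulators that answer to heme or stress, 1 rose at day 3, Maff, a small Maf partner of Nrf2 and Bach1 (1.64 ± 0.47, edgeR adjusted p = 0.0360). Of 16 targets of Nrf2, 3 rose: Gstm1, a glutathione transferase, by 2.25 ± 0.65 (adjusted p = 0.0360), Prdx1, a peroxiredoxin, by 0.87 ± 0.22 (adjusted p = 0.0248), and Srxn1, which restores peroxiredoxins, by 0.53 ± 0.16 (adjusted p = 0.0404). These 4 calls held in 1 to 3 of the 8 runs without 1 library. With the covariates Gstm1 was at 0.82, Maff at 0.56 and Prdx1 at 0.45, and their calls were lost (edgeR adjusted p = 0.415, 0.399 and 0.251). The median of the 16 was 0.59 on the log2 scale, beside 0.0088 over all genes.

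At day 7, 1 of the 68 was called higher and 5 lower, where 3.62% of all genes were called higher and 6.9% lower, so the share called lower was near that of all genes. The median log2 fold change was 0.22 beside 0.028 over all genes. Uros, the fourth enzyme of heme synthesis, rose by 0.38 ± 0.09 on the log2 scale (edgeR adjusted p = 0.0210), and Cpox was again lower, by 0.55 ± 0.15 (adjusted p = 0.0331). Flvcr2, a transporter of the heme exporter family, fell from 20.6 ± 5.83 to 10.4 ± 2.56 CPM (adjusted p = 0.0426). The other 3 that fell were Pgrmc2, Slc39a14 and Ireb2, and none of the 6 kept its call in more than 3 of 8 runs. With the covariates 2 of the 6 kept it, Uros and Ireb2. Over all genes, the 1962 day 7 calls became 128 to 2923 in the runs without 1 library and 1333 with the covariates. At day 14 edgeR called 0 of the 68, with 23 at an unadjusted p under 0.05, DESeq2 called 10 and limma voom 0. Of all 18657 genes tested, DESeq2 called 1778 at that day and limma voom 101. In the knockout pair edgeR called 0 of 67, with 19 at an unadjusted p under 0.05, DESeq2 called 7 and limma voom 0. Of all 18923 genes tested in that pair, DESeq2 called 695 and limma voom 43. The share of all genes at an unadjusted edgeR p under 0.05 was not counted at day 14 or in that pair. Ftl1 was at 365 to 458 CPM in Rag2-/- and 475 to 572 CPM in Rag2-/-γc-/- there (0.36 ± 0.10, edgeR adjusted p = 0.169), and Tfrc at 120 to 128 CPM and 77.8 to 110 CPM (-0.43 ± 0.12, adjusted p = 0.1796).

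Across the 16 wild-type libraries the genes nearest to Hbb-bs, among 16651 others whose mean reached 1 CPM, were the other 3 globins. The Pearson r of log2 levels with Hbb-bs was 0.990 for Hba-a1, 0.965 for Hba-a2 and 0.935 for Hbb-bt, ranks 1 to 3, and Spearman's rank correlation was 0.991, 0.962 and 0.882. The next 5 genes were Gtf3c6, Commd8, Rps15a-ps7, Tomm34 and Ager, with r of 0.873 down to 0.850. For Hba-a1 the r was 0.988 on deviations from the group means and 0.990 without the 2 libraries farthest from the median, close to the value over all libraries. Without those 2 libraries it was lower for Hba-a2 (0.937) and for Hbb-bt (0.877). These are descriptions over libraries that share depth, groups and tissue content, and each globin pair also shares sequence.

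Alas2 ranked 29th for Hbb-bs, with r = 0.816 and a rank correlation of 0.791. Its own nearest genes were Rab27b (r = 0.887), Hbb-bt (0.861), Polr3g (0.851), Lgals12 (0.848), Hba-a1 (0.844), Sypl, Acer3 and Vps4b. Without its 2 farthest libraries, day 7 replicate 1 and day 14 replicate 1, the r of Alas2 with Hba-a1 was 0.654. Hmox1 ranked 5171st for Hbb-bs, with r = 0.392 and a rank correlation of 0.459, and 0.182 on deviations from the group means. The genes nearest to Hmox1 were Nckap1l (r = 0.941), Adgrg6 (0.938), Birc7 (0.931), Snx22 (0.928), Csf1 (0.921), Lgals1, Serping1 and Plcb2 (0.914), of which Birc7 is in the lens list. None of these 8 is a globin.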

How the data were processed

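RNA-seq libraries of mouse retina and choroid, 16 wild-type and 6 Rag2 knockout, were analysed from 2 deposited tables of raw counts per gene. The authors counted reads with featureCounts 1.5.0-p3 on mm10, per the submitters' processing notes, and the sources used here name no aligner, annotation release, strand setting or rule for reads that match several genes. Log2 fold changes, p-values and adjusted p-values that the authors deposited beside the wild-type counts, per the file headers, are quoted as theirs. A further 28 columns of FPKM values and group means were not used.

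Counts were tested with edgeR 4.0.16 (limma 3.58.1, R 4.3.3): filterByExpr (minimum count 10, minimum total 15), which kept 18657 and 18923 genes, TMM scaling, and robust quasi-likelihood tests of group means within each table, with Benjamini-Hochberg adjustment over all genes. CPM values use the same scaling, and CPM per kb divides by the deposited gene length. Shares carry 95% Wilson intervals. Alternatives were RLE factors, library totals, no filter, DESeq2 1.42.0, limma voom, summed copies, only the groups compared, a replicate block, covariates for lens and cornea content, and libraries left out. Replicate numbers were not taken to pair libraries: same-numbered wild-type libraries correlated by -0.506 to 0.479 in their deviations. Of these pairs 12 of 24 were above 0.1, beside 28 of 72 pairs with different numbers, and no 2 libraries were duplicates. The test was tried on simulated counts before use. Named genes are the 6 members, list genes that were called or had the 3 smallest p, and the 8 nearest genes by correlation. The members and lists were chosen with earlier results of these data known. A few names fall outside that rule and were chosen after their values were seen. Promoter windows are from RefSeq (GRCm38.p6), and 5 of 6 members matched by symbol. Transcripts of GENCODE M21 served to compare copies. Results for a few list genes are not reported here.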

Additional observations from a re-analysis of the deposited data

Results flagged for a closer look

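In 8 of the 24 groups of 4 wild-type libraries (6 genes in 4 groups), 1 library stood far from the other 3 in CPM. At day 7 it was replicate 1 for Hba-a1 (437 CPM, the others 16.6 to 43.8), Hba-a2 (140.0 CPM, the others 4.32 to 13.6), Hbb-bs (72.7 CPM, the others 3.26 to 7.43), Hbb-bt (26.9 CPM, the others 1.55 to 3.13) and Alas2 (11.95 CPM, the others 1.78 to 2.09). Hmox1 stood apart in other libraries: day 3 replicate 1 (38.1 CPM, the others 25.6 to 26.95), day 7 replicate 4 (27.8 CPM, the others 7.09 to 8.82) and day 14 replicate 1 (41.9 CPM, the others 5.71 to 9.48). The 5 globin and Alas2 values come from 1 library and are not independent of each other.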

How the results depend on the processing

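Of the 6 genes, 1 was called at day 3, which became 4 with only the groups compared, 0 with lens and cornea covariates and 0 to 1 without 1 library. DESeq2 also called 1 at day 3, but it was Hbb-bs, and DESeq2 gave Hmox1 no adjusted p there. Over all genes, the 2749 day 3 calls became 7171 with only the groups compared, 438 with the covariates and 292 to 2409 without 1 library. At day 7 the count of 2 became 0 without a filter, with limma voom, with a replicate block, with only the groups compared or with the covariates. It became 4 with DESeq2 or without 3 libraries left out together (day 3 replicate 3, day 7 replicate 2, day 14 replicate 1). Those 3 do not include day 7 replicate 1, the library with the most globin and the one flagged above for the globins. Without 1 library the day 7 count was 0 to 3 (3, with Hbb-bs, without day 7 replicate 3 or 4). Over all genes, the 1962 day 7 calls became 751 without a filter, 2026 with limma voom, 1691 with the block and 4485 with only the groups compared. They became 1333 with the covariates, 3768 with DESeq2, 3686 without those 3 libraries and 128 to 2923 without 1 library. DESeq2 called 3 of the 6 at day 14 and 1 in the knockout pair, against 0, and 1778 and 695 of all genes, against 51 and 88. For day 14 against day 3 the count was 1, Hmox1, without those 3 libraries and 0 to 1 without 1 library. The count over all genes was 683 and 0 to 1290 in those runs, against 1.

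Replicate numbers were not taken to pair the libraries, and the replicate block changed the calls at day 7 only. Directions turned with the covariates at day 3 for Hba-a1 (log2 fold change -0.29), Hba-a2 (-0.55), Hbb-bt (-1.23) and Alas2 (-1.86), and for Alas2 at day 7 (-0.43) and day 14 (-0.27). Alas2 at day 3 was -0.26 without the 3 libraries and -0.28 to 1.05 without 1. From day 3 to day 7, leaving out 1 library gave -0.99 to 2.02 for Hba-a1, -0.41 to 2.50 for Hba-a2, -1.13 to 1.57 for Hbb-bs, -0.92 to 1.98 for Hbb-bt and -0.30 to 1.87 for Alas2, negative without day 7 replicate 1. From day 3 to day 14 it gave -0.36 to 1.32 for Hba-a1 and -0.25 to 1.14 for Hbb-bs, negative without day 14 replicate 1, and the replicate block gave -0.068 and -0.019. In the knockout pair Hba-a1 was 0.032 with limma voom, 0.021 with the replicate block and -0.31 to 0.13 without 1 library. Hba-a2 was -0.0075 with the copies summed, Hbb-bs -0.43 to 0.085 without 1 library, and Hbb-bt 0.17 with limma voom, 0.12 with the block and -0.41 to 0.28 without 1 library. The causes were not tested. Of all values for single genes under the alternatives, 538 kept direction and call, 16 gained and 28 lost a call in the same direction and 31 turned. Depth limits Hbb-bt and Alas2 most, with as few as 6 and 8 counts in a library.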
